A study of Mus musculus with 10 samples.

Results

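The oligoadenylate synthetases (Oas) are a family of interferon-induced enzymes and enzyme-like proteins, and 8 of their genes were followed here across 10 mouse liver RNA-seq libraries: Oas1a, Oas1b, Oas1c, Oas1g, Oas2, Oas3, Oasl1 and Oasl2. They were picked by gene symbol, as 8 of the 12 genes of that name among the 54532 genes of the deposited count table, and results of the napabucasin comparison were known when they were picked. The values between the groups are therefore given as a description, with no test of the members. The napabucasin group consisted of 5 livers of mice gavaged once a day with napabucasin (BBI608), a small quinone made to block transcription through STAT3, at 20 mg per kg for 7 days. The vehicle group consisted of 5 livers of mice gavaged on the same schedule with 1% NaCMC, sodium carboxymethyl cellulose. The libraries are labelled as biological replicates. The sources used here do not give the strain, sex or age of the mice. The question of the study was which liver genes and pathways respond to the drug.

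Oas proteins sense double-stranded RNA, a sign of viral infection. The active enzymes then join ATP into short oligoadenylates with an unusual phosphodiester linkage, known as 2-5A, a signal that leads to the cutting of cellular and viral RNA. Oas genes are textbook targets of type I interferon: the transcription factor complex ISGF3 binds an interferon-stimulated response element (ISRE) in their promoters. In the liver, hepatocytes, endothelium and immune cells can all induce them. Fewer cells of a type and less RNA per cell cannot be told apart in whole tissue.

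The promoter letters are shown because the ISRE is the element through which interferon is known to act on these genes. RefSeq promoter windows (GRCm38.p6), from 250 bases before to 50 bases after the annotated start, were at hand for 6 of the 8 members, and the entries missing were Oas1b and Oas2. The motif searched was GAAANNGAAA on both strands, with overlapping matches counted separately. It was found in 4 of the 6 windows, and in 3.44% of 32851 promoter windows of the same length. Capitals mark the matches, all 4 sequences run 5′ to 3′ on the gene's own strand, and each window is printed whole.
Oas1a promoter, chr5:120907476-120907775, minus strand: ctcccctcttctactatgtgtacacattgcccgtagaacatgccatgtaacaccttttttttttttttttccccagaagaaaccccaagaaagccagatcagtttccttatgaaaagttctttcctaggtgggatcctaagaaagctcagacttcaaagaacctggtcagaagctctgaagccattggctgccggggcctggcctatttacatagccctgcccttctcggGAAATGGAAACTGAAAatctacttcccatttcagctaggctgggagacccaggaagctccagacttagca
Oas1g promoter, chr5:120887564-120887863, minus strand: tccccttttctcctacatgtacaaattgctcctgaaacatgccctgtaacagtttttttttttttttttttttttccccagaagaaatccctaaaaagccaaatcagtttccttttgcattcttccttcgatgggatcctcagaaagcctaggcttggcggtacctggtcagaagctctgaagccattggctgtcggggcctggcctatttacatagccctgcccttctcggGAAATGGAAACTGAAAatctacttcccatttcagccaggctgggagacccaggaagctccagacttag
Oas1c promoter, chr5:120812465-120812764, minus strand: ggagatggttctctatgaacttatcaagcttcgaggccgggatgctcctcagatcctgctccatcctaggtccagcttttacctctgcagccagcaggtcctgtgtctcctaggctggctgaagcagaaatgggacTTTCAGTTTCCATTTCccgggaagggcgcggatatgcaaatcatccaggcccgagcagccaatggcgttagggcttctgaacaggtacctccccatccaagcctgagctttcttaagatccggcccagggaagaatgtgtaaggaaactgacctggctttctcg
Oas3 promoter, chr5:120777610-120777909, minus strand: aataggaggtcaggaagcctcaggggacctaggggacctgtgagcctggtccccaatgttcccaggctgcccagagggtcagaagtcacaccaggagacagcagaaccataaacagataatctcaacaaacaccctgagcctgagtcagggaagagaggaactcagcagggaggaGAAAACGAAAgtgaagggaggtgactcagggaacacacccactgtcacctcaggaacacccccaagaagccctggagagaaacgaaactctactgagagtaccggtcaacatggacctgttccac
In Oas1a and Oas1g a pair of overlapping matches formed the same run, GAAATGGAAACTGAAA, 20 to 5 bases before the start of Oas1a and 18 to 3 bases before that of Oas1g. Aligned end to end, those windows were identical in 261 of 306 columns (85.3%), and the next closest pair of windows, Oas3 and Oas1c, in 48.5%. The Oas1c window held the same 16 letters on the other strand, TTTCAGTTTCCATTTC, 114 to 99 bases before its start. Oas1c and Oas1b lie head to head with 120 bases between them, and by the deposited coordinates this run ended 7 bases before the start of Oas1b, on whose strand it reads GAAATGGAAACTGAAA. Oas3 held 1 match, GAAAACGAAA, 75 to 66 bases before its start. The Oasl1 and Oasl2 windows held no match, which says only that these letters are not in those windows. A second motif, the STAT dimer site TTCNNNGAA, was found in 1 of the 6 windows, that of Oas1a, and in 8.30% of all promoter windows.

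All 8 members lie on chromosome 5 (GRCm38). Oas1 to Oas3 genes fill one cluster of 10 genes from 120730333 to 120921652, and Oasl2 and Oasl1 sit apart from 114896936 to 114937915. The deposited start and end of all 8 matched GENCODE M21. Oas1a and Oas1g are close copies: 57.6% of the 50-base stretches of the GENCODE transcripts of Oas1a also occurred in Oas1g, and 45.2% of those of Oas1g in Oas1a. Their separate values are uncertain because reads can be shared. The share in any other Oas gene was 9.82% for Oas1c and 1.17% for Oas1b, and 0% for Oas2, Oas3, Oasl1 and Oasl2. Genes on the opposite strand overlap Oas1c, Oas2 and Oasl1 by 5430, 1273 and 38 bases, and hold 2, 8 and 18 counts over the napabucasin and 0, 1 and 9 counts over the vehicle libraries. Whether reads were counted by strand is not stated in the sources used here.

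Of the 4 Oas genes outside the 8, Oas1d, Oas1e and Oas1f had 0 counts in all 10 libraries, which allows up to 0.160 to 0.205 CPM (counts scaled to library size) per napabucasin library and 0.138 to 0.257 CPM per vehicle library, for counting error only. Oas1h had 12 counts over the napabucasin and 4 over the vehicle libraries and did not pass the filter on low counts. All 8 members passed it.

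Library totals were 15364342 to 17369118 counts in napabucasin and 14124484 to 17759967 in vehicle livers. Mitochondrial genes took 9.03% to 19.9% of counts in napabucasin and 7.03% to 19.0% in vehicle libraries. Every napabucasin library lay above 4 of the 5 vehicle libraries, which reached 8.78%, and the highest share belonged to napabucasin replicate 1, the liver with the highest summed Oas level. Genes of rRNA took 1.09% of counts in napabucasin replicates 1 and 2 and 0.912% in vehicle replicate 2, against 0.195% to 0.455% in the other 7 libraries. The part of these shares in the Oas values was not tested. Alb, the largest part of the hepatocyte sums, averaged 70587 CPM in napabucasin and 86442 CPM in vehicle libraries. All 10 hepatocyte markers were detected, with summed levels of 77845 to 136980 CPM in napabucasin and 54134 to 162874 CPM in vehicle libraries. Of these markers 1 had a log2 fold change above 0, the median was -0.23, and at an unadjusted p under 0.05 there were 0 higher and 1 lower (Ass1 of the urea cycle, -0.69 with an SE of 0.30). Vehicle replicate 2 had the lowest hepatocyte sum of all and the highest scaling factor (1.23). Vehicle replicate 1 had the lowest total, the lowest scaling factor (0.829) and, at 19.0%, the highest mitochondrial share of its group. In the vehicle group these livers were also the highest (replicate 2) and the lowest (replicate 1) in summed Oas level.

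**Figure D1:**
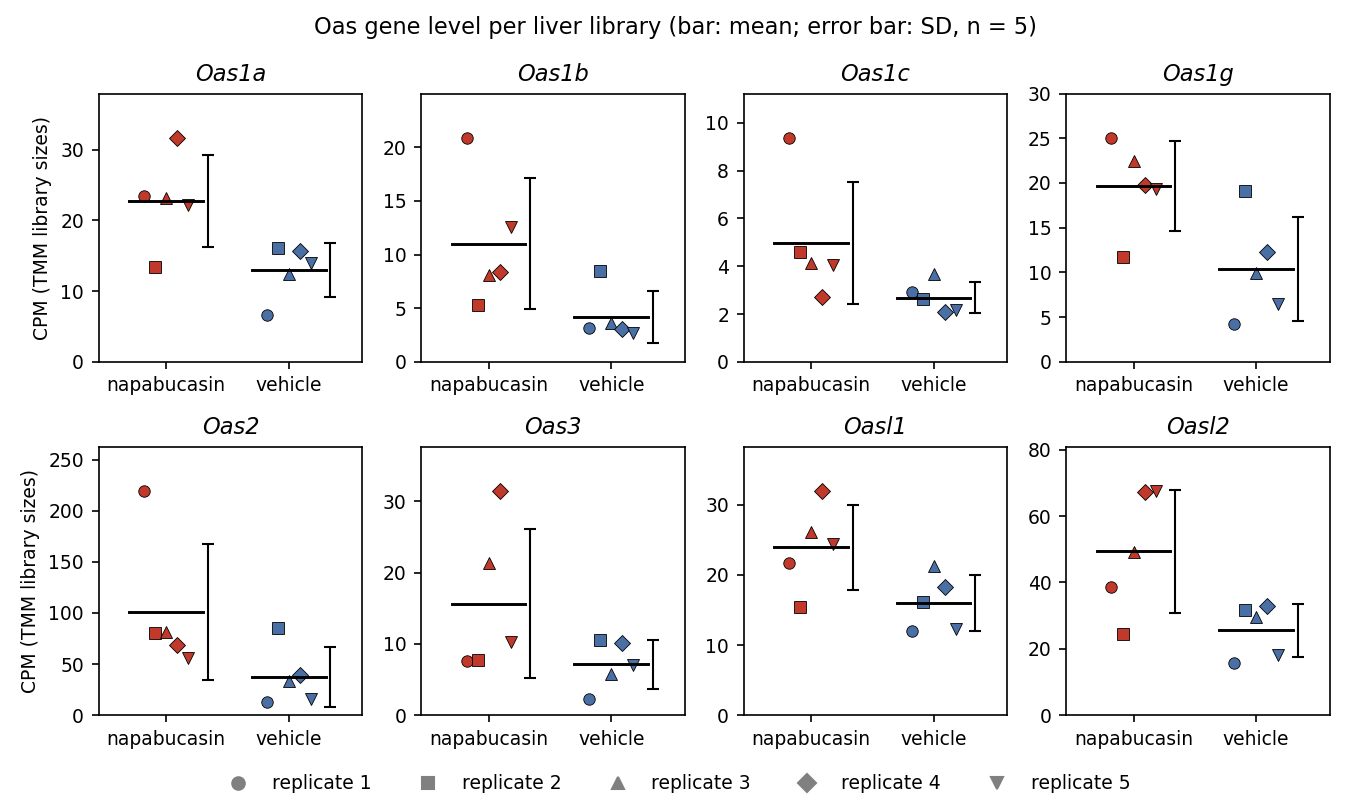
Level of each Oas gene in every library, in CPM with TMM library sizes, on a linear axis from 0 with a separate scale for each gene. Points are libraries with 1 symbol per replicate number, the horizontal line is the mean and the error bar the SD of 5; the means lay higher in napabucasin livers for all 8 genes and the groups overlapped in each.

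Every one of the 8 members had a higher mean in napabucasin than in vehicle livers, and in none of them did the groups separate. The labels do not say that livers of the same replicate number are matched, so comparisons by that number are a description only. Set side by side in this way, napabucasin was higher for all 8 members in pairs 1, 3, 4 and 5. It was lower for 7 of the 8 in pair 2. Oas1c was higher in 5 of 5 pairs and each of the other 7 in 4 of 5. The share of all genes was not taken for single pairs, so these counts are not read as particular to the family. Pair 1 sets the napabucasin liver highest in summed Oas level against the vehicle liver lowest in it. Log2 fold changes, from edgeR's quasi-likelihood fit of the whole table, ran from 0.58 for Oasl1 to 1.43 for Oas2 with a median of 0.93, beside a median of 0.00 over all 14244 genes fitted. A log2 fold change above 0 was given for 8 of the 8 members and for 50.1% of all genes. At an adjusted p under 0.05 edgeR called 0 of the 8 members and 0% of all genes, the smallest value being 0.0644. Without adjustment, 8 of the 8 members and 9.34% of all genes were higher at a p under 0.05. Every napabucasin library lay above every vehicle library for 0 of the 8 members and 1.21% of all genes. DESeq2, run on the same genes, called 242 of the 13682 it gave an adjusted p (1.77%), 1 of them a member, Oas1b (DESeq2 adjusted p = 0.0461). Because the members were picked with this comparison known, nothing is read from these counts.

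The Oas1 genes encode the small Oas proteins, with a single Oas unit, and not all of them need be active enzymes. Oas1a (chromosome 5, 120896256 to 120907521, minus strand), an active synthetase, measured 23.5, 13.4, 23.1, 31.6 and 22.2 CPM in napabucasin replicates 1 to 5, against 6.67, 16.1, 12.4, 15.7 and 14.0 CPM in vehicle replicates 1 to 5. Napabucasin replicate 2 lay within the vehicle range and the other 4 above it. The means were 22.8 ± 6.48 CPM in napabucasin and 13.0 ± 3.83 CPM in vehicle livers (SD, n = 5 each), and the log2 fold change was 0.80 (SE 0.26).

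Oas1g (120876142 to 120887613, minus strand), the near copy of Oas1a, measured 25.0, 11.7, 22.4, 19.8 and 19.3 CPM in napabucasin livers, against 4.19, 19.1, 9.95, 12.3 and 6.46 CPM in vehicle livers. The overlap again came from napabucasin replicate 2, which was low, and from vehicle replicate 2, which almost reached the other 4 napabucasin livers. The log2 fold change was 0.91 (SE 0.34). The coefficient of variation was 25.5% among napabucasin and 55.6% among vehicle livers.

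Oas1b (120812635 to 120824163, plus strand) is the mouse flavivirus resistance gene, and many laboratory strains carry a copy with a premature stop. The deposited table lists it as a polymorphic pseudogene. It measured 20.8, 5.30, 8.13, 8.33 and 12.5 CPM in napabucasin livers, against 3.16, 8.50, 3.62, 3.09 and 2.66 CPM in vehicle livers. Vehicle replicate 2 stood far above the other 4 vehicle livers, and without that library the groups would not have overlapped. The means were 11.0 ± 6.05 CPM in napabucasin and 4.21 ± 2.42 CPM in vehicle livers, and the log2 fold change was 1.37 (SE 0.40). Left out in turn, napabucasin replicate 1 brought it to 1.00 and vehicle replicate 2 to 1.81.

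Oas1c (120800194 to 120812514, minus strand), the head-to-head neighbour of Oas1b, was the member with the fewest reads over all libraries, 51 to 150 counts in napabucasin and 30 to 57 in vehicle libraries. It measured 9.35, 4.60, 4.15, 2.72 and 4.04 CPM in napabucasin livers, against 2.91, 2.62, 3.70, 2.08 and 2.15 CPM in vehicle livers. Napabucasin replicate 1 was far above the rest and napabucasin replicate 4 lay within the vehicle range. The log2 fold change of 0.89 (SE 0.33) was 0.53 without napabucasin replicate 1.

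Oas2 (120730333 to 120749853, minus strand), a larger synthetase with duplicated enzyme units, had the widest range of CPM. It measured 219, 80.3, 81.3, 68.8 and 55.6 CPM in napabucasin livers, against 13.3, 85.2, 33.6, 39.6 and 15.4 CPM in vehicle livers. Napabucasin replicate 1 alone exceeded vehicle replicate 2, while the other 4 napabucasin livers lay above the other 4 vehicle livers. The means were 101 ± 66.7 CPM in napabucasin and 37.4 ± 29.0 CPM in vehicle livers, and the log2 fold change was 1.43 (SE 0.49). It was 0.93 without napabucasin replicate 1 and 1.99 without vehicle replicate 2. From the highest to the lowest library Oas2 differed 3.94-fold within the napabucasin group, where Oas3 differed 4.12-fold, and 6.43-fold within the vehicle group, where Oas3 differed 4.75-fold.

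Oas3 (120753098 to 120777661, minus strand), the largest synthetase, makes long 2-5A. It measured 7.61, 7.68, 21.3, 31.4 and 10.3 CPM in napabucasin livers, against 2.22, 10.6, 5.76, 10.1 and 7.04 CPM in vehicle livers. Only napabucasin replicates 3 and 4 exceeded the vehicle range, and replicate 1, the highest liver for Oas2, was the lowest of its group for Oas3. The log2 fold change of 1.12 (SE 0.45) was 0.70 without napabucasin replicate 4.

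The Oas-like genes add ubiquitin-like domains to the Oas fold. Oasl1 (114923240 to 114937915, plus strand), which has no synthetase activity and in mice restrains interferon production by blocking translation of Irf7, measured 21.8, 15.4, 26.2, 31.9 and 24.4 CPM in napabucasin livers, against 12.1, 16.2, 21.3, 18.2 and 12.3 CPM in vehicle livers. It had the smallest log2 fold change of the family, 0.58 (SE 0.22), and its coefficient of variation was 25.2% among napabucasin and 24.7% among vehicle livers. Napabucasin replicate 2 lay among the vehicle livers, and replicate 1 was just above the highest of them.

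Oasl2 (114896936 to 114912234, plus strand), an Oas-like protein that keeps synthetase activity, measured 38.5, 24.6, 49.2, 67.3 and 67.4 CPM in napabucasin livers, against 15.8, 31.5, 29.7, 32.8 and 18.0 CPM in vehicle livers. Apart from napabucasin replicate 2, all napabucasin livers lay above the vehicle range. The means were 49.4 ± 18.6 CPM in napabucasin and 25.6 ± 8.02 CPM in vehicle livers, and the log2 fold change was 0.95 (SE 0.29).

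**Figure D2:**
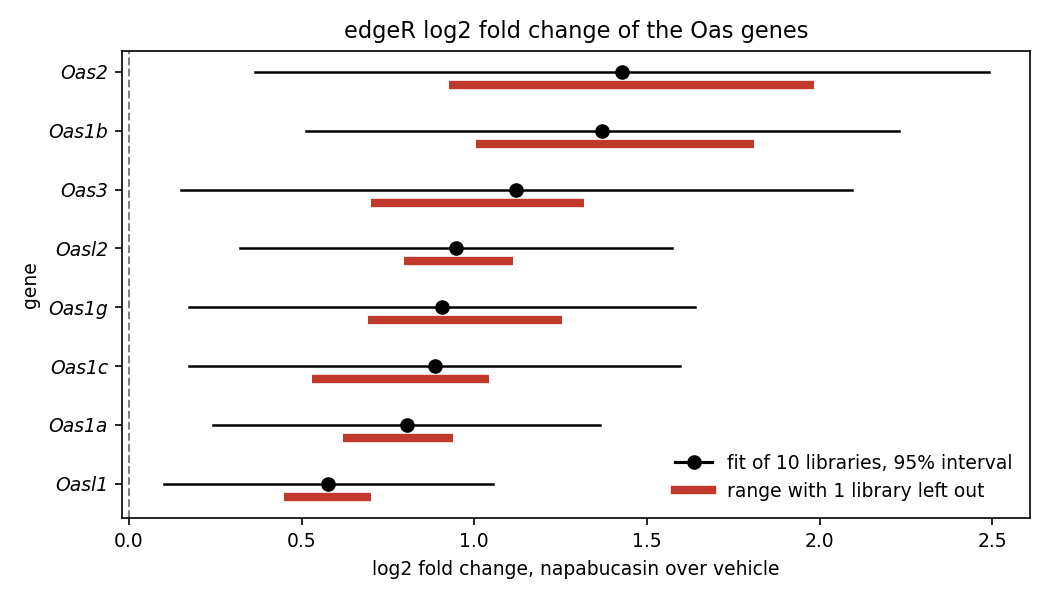
Log2 fold change of each Oas gene, napabucasin over vehicle, on the x axis, with the edgeR estimate and its 95% interval, unadjusted, in black and the range of estimates with 1 library left out in red. Oas2, Oas1b and Oas3 had the highest estimates and wide ranges, from 0.93 to 1.99 for Oas2, and Oasl1 the lowest, from 0.45 to 0.70.

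Per length, in the FPKM values the authors deposited, the family summed to 68.9 ± 20.0 FPKM in napabucasin and 33.8 ± 13.3 FPKM in vehicle livers (SD, n = 5 each). The sum ran from 44.9 to 99.6 FPKM in napabucasin and from 18.2 to 52.7 FPKM in vehicle livers, so the groups overlapped through vehicle replicate 2 and napabucasin replicate 2. Oas2 had the highest mean FPKM in both groups (22.3 ± 14.5 in napabucasin and 8.31 ± 6.36 in vehicle livers). Oas1a was next, with 11.9 ± 3.39 FPKM in napabucasin and 6.85 ± 2.02 FPKM in vehicle livers, followed in both groups by Oasl1, Oas1g, Oasl2 and Oas1b. Oas3 and Oas1c came last. Oas3 was at 2.19 ± 1.47 FPKM in napabucasin and 1.00 ± 0.476 FPKM in vehicle livers, and Oas1c at 2.03 ± 1.02 FPKM in napabucasin and 1.11 ± 0.268 FPKM in vehicle livers. The ranges of genes next to each other in this order overlapped in 7 of 7 pairs in the napabucasin group and in 7 of 7 in the vehicle group. Within single livers, 1 of the 7 steps held in all 5 napabucasin livers (Oas1a above Oasl1) and 2 of the 7 in all 5 vehicle livers (Oasl2 above Oas1b and Oas1b above Oas1c).

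The mix of family members differed from liver to liver within a group. Oas2 made up 48.1% of the family FPKM in napabucasin replicate 1 and 20.2% in napabucasin replicate 5, with 31.3% ± 12.2 over the 5 napabucasin livers and 22.1% ± 8.39 over the 5 vehicle livers. Oasl1 made up 13.6% ± 3.31 in napabucasin and 19.4% ± 5.21 in vehicle livers. The group means of the share differed least for Oas1g, with 12.1% ± 1.66 in napabucasin and 12.4% ± 2.12 in vehicle livers.

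**Figure D3:**
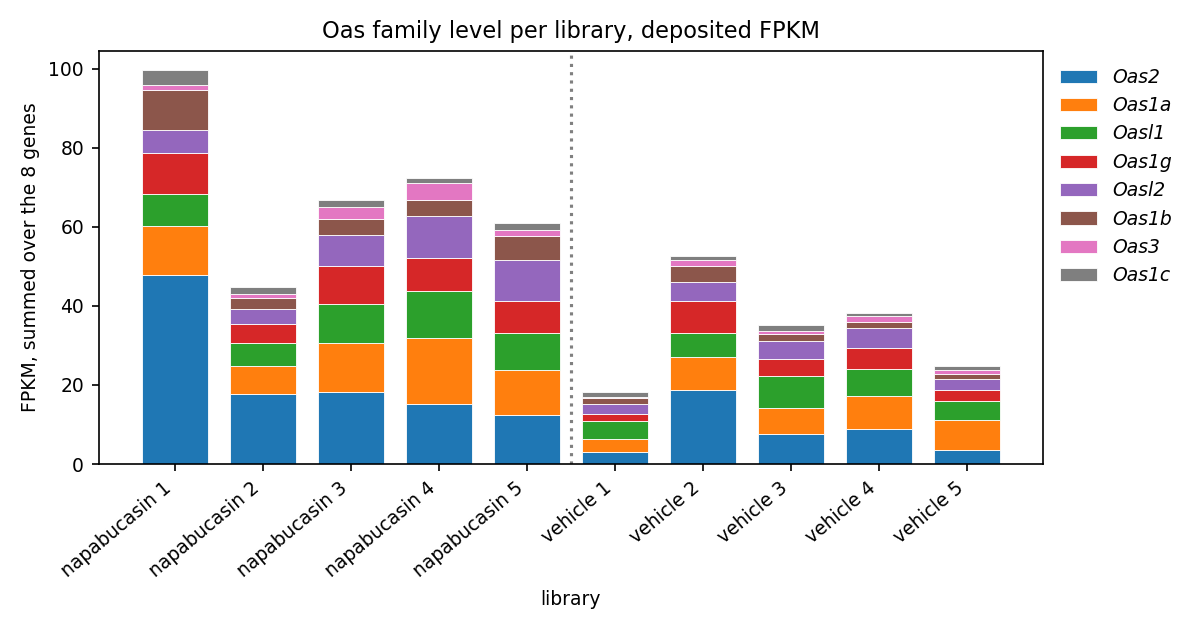
Summed FPKM of the 8 Oas genes in each library, as deposited, stacked by gene, with napabucasin libraries left of the dotted line and vehicle libraries right. Napabucasin replicate 1 has the tallest bar (99.6 FPKM), of which Oas2 is 48.1%, and vehicle replicate 1 the shortest (18.2 FPKM).

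Which liver was highest depended on the gene. Among napabucasin livers, replicate 1 was the highest for Oas1b, Oas1c, Oas1g and Oas2, replicate 4 for Oas1a, Oas3 and Oasl1, and replicate 5 for Oasl2. Napabucasin replicate 2 was the lowest for 5 members (Oas1a, Oas1b, Oas1g, Oasl1 and Oasl2). Among vehicle livers, replicate 2 was the highest for 5 members (Oas1a, Oas1b, Oas1g, Oas2 and Oas3), and replicate 1 the lowest for 6, all but Oas1b and Oas1c. Deviations of log2 CPM from the group mean do not use the difference between groups. They restate the same counts on a log scale, so they give the same division by construction and add no support. In napabucasin replicate 1 they were 1.30 for Oas2, 1.07 for Oas1b and 1.02 for Oas1c, but -0.79 for Oas3 and -0.26 for Oasl2. In napabucasin replicate 4 they were 1.24 for Oas3 and -0.72 for Oas1c.

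Between members, the likeness of these deviations was measured as the root mean square difference over the 10 libraries, where a smaller value means more alike. The closest pair was Oasl1 and Oasl2 (0.25 log2 units), which are neighbours, and Oas1a was next closest to each of them (0.30 to Oasl1, 0.31 to Oasl2). Oas1a and its near copy Oas1g differed by 0.36. The least alike were Oas1c and Oas3 (1.14), Oas2 and Oas3 (1.01) and Oas1b and Oas3 (1.00). Oas2 and Oas3 lie 3244 bases apart on the same strand. The measure also grows with a gene's own spread, so the order partly restates which genes varied most. The root mean square deviation was largest for Oas2 (0.84) and Oas3 (0.81) and smallest for Oasl1 (0.33). The head-to-head pair Oas1b and Oas1c differed by 0.56. All these values share libraries, depth and scaling.

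**Figure D4:**
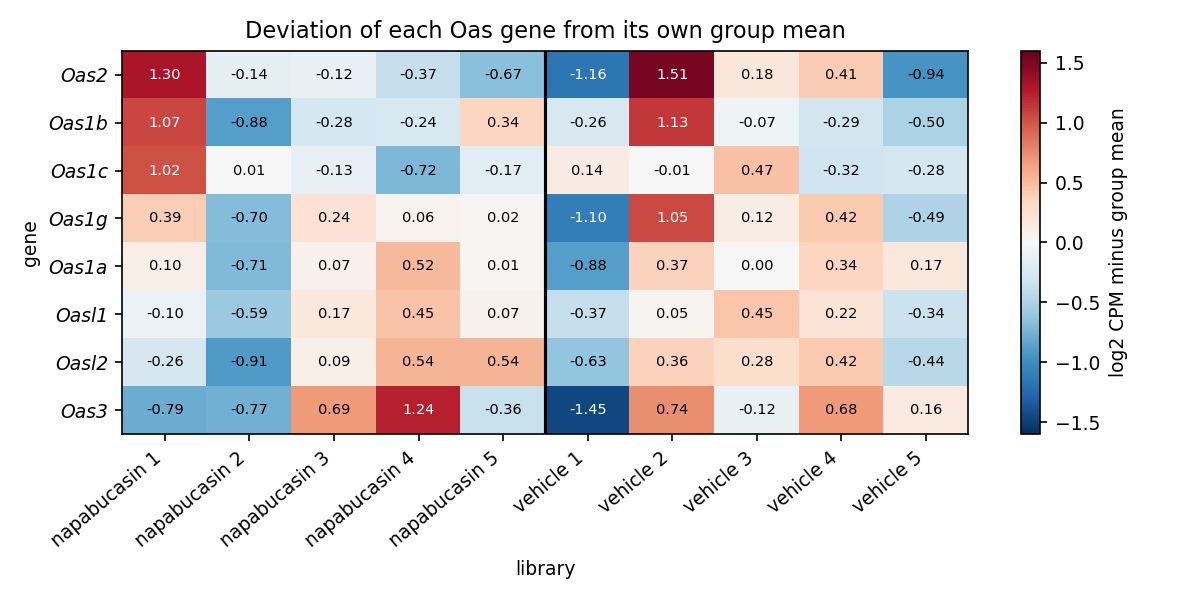
Log2 CPM minus the gene's own group mean for the 8 Oas genes (rows) in the 10 libraries (columns), napabucasin left of the line and vehicle right, red above and blue below the group mean. Napabucasin replicate 1 is high for Oas2 (1.30) and low for Oas3 (-0.79), while vehicle replicate 2 is high for Oas2 (1.51), Oas1b (1.13), Oas1g (1.05) and Oas3 (0.74).

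The mean deviation of the 8 members was compared in the same way with the 13334 other genes that had a mean of at least 1 CPM. It was highest in vehicle replicate 2 (0.65) and lowest in vehicle replicate 1 (-0.71) and napabucasin replicate 2 (-0.59). The 10 most alike genes were Ifi206, Oraov1, Rnf213, Apex2, Trove2, Ifi203, Abcf2, Phlpp2, Scamp5 and Daxx, with root mean square differences of 0.14 to 0.21 log2 units, where the median of the 13334 genes was 0.53. A gene with no deviation in any library would differ by 0.40. The members themselves differed from their mean by 0.21 (Oas1g) to 0.63 (Oas3). The 10 genes are the closest of 13334 by selection, so nothing is read from their closeness. Between groups, the differences of these 10 genes were not alike. Ifi206 and Ifi203, which belong to the Ifi200 (PYHIN) genes, had log2 fold changes of 1.30 (SE 0.29) and 1.09 (SE 0.24). The ubiquitin ligase gene Rnf213 had 0.57 (SE 0.26), and the other 7 ran from -0.28 to 0.35. Of these 10 genes 5 to 8 were named again when 1 library was left out, and 5 when Spearman's correlation of the deviations replaced the measure.

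Of 5 genes listed with the 2-5A pathway, 0 were past an unadjusted p of 0.05 in edgeR. Of all genes, 9.34% were higher and 5.83% lower by that rule. Abce1, an ATP-binding protein of ribosome recycling, measured 70.0 ± 14.0 CPM in napabucasin and 75.4 ± 12.2 CPM in vehicle livers (SD, n = 5 each). Its log2 fold change was -0.11 (SE 0.18). The log2 fold changes of Pde12 and Enpp1, which can degrade 2-5A, were -0.18 (SE 0.24) and 0.01 (SE 0.21). That of Cnp, another phosphodiesterase of the same fold family as some 2-5A-degrading enzymes, was 0.05 (SE 0.23).

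Upstream of the family, interferon transcripts themselves were barely sampled. Of 21 interferon genes 17 had no count in any library, and 0 passed the filter. Ifng had 0, 3, 11, 9 and 0 counts in napabucasin livers, against 3, 7, 2, 5 and 0 counts in vehicle livers, and the others with any count, Ifnk, Ifna5 and Ifnz, had 8, 2 and 1 counts over the 10 libraries.

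Receptors, factors and sensors of the interferon response lay mostly higher, and edgeR called 0 of them at an adjusted p under 0.05, as it called 0% of all genes. The share of all genes at an unadjusted p under 0.05 was 9.34% higher and 5.83% lower. Of 9 receptor and kinase genes 4 were higher and 0 lower by that unadjusted rule. Il10rb, a receptor chain shared by interferon lambda and interleukin-10, had a log2 fold change of 0.87 (SE 0.27) and the kinase Tyk2 one of 0.77 (SE 0.26). Of 8 transcription factors 4 were higher and 0 lower. Irf7, the factor of interferon amplification, measured 195 ± 66.9 CPM in napabucasin and 106 ± 35.3 CPM in vehicle livers. The log2 fold change was 0.88 with an SE of 0.29, and edgeR gave an adjusted p of 0.246. Irf8 and Irf5 had log2 fold changes of 0.79 (SE 0.28) and 0.56 (SE 0.24).

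Among 10 sensors of double-stranded RNA or DNA, all 10 had log2 fold changes above 0, with a median of 0.48, and 5 were higher by the unadjusted rule. Ddx58, which encodes the RNA sensor RIG-I, measured 68.5 ± 13.2 CPM in napabucasin and 44.3 ± 6.27 CPM in vehicle livers. The log2 fold change was 0.63 with an SE of 0.17, and edgeR gave an adjusted p of 0.221. Dhx58, Adar and Tlr3 had log2 fold changes of 0.55, 0.59 and 0.50. Of 43 other interferon-stimulated genes fitted 22 were higher and 1 lower by the unadjusted rule, with a median log2 fold change of 0.56. The smallest p-values in that list belonged to Sp100, Gbp3, Ddx60 and Uba7, with log2 fold changes of 1.05 (SE 0.19), 0.86 (SE 0.16), 0.76 (SE 0.15) and 0.94 (SE 0.20), each with an edgeR adjusted p of 0.157. Of 5 feedback genes 1 was higher, Ptpn6 at 0.48 (SE 0.22), and Usp18, which desensitizes the interferon receptor, had 0.43 (SE 0.31).

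Cell type markers are set beside the 9.34% of all genes that were higher at an unadjusted p under 0.05, and edgeR called 0 of them at an adjusted p under 0.05. All 12 T cell markers had log2 fold changes above 0 and 9 were higher at an unadjusted p under 0.05, with summed levels of 24.2 to 56.0 CPM in napabucasin and 14.3 to 22.4 CPM in vehicle livers. All 10 B cell markers were higher by the same rule, with sums of 89.4 to 170.3 CPM in napabucasin and 43.1 to 67.0 CPM in vehicle livers. NK cell markers, with 6 of 8 fitted higher, summed to 28.0 to 65.4 CPM in napabucasin and 15.5 to 30.8 CPM in vehicle livers. None of the markers in these or the following lists was at 0 in all libraries. Within the napabucasin group, replicate 1 had both the highest summed Oas level (99.6 FPKM) and the highest B cell sum (170.3 CPM). Napabucasin replicate 5 had the lowest T, B and NK sums of its group, together with the lowest Oas2 level, the highest Oasl2 level and the next to lowest summed Oas level (60.9 FPKM). Napabucasin replicate 2, the lowest of its group for 5 Oas members and in summed Oas level, had the highest T cell and NK sums (56.0 and 65.4 CPM). The part of lymphocytes in the Oas values was not tested.

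All 10 Kupffer cell markers, those of resident liver macrophages, had log2 fold changes above 0, as had 50.1% of all genes. Their median was 0.64, and 1 of the 10 was higher by the unadjusted rule. Kupffer sums were 559 to 2158 CPM in napabucasin and 294 to 1577 CPM in vehicle livers. The lowest and highest Kupffer sums of the vehicle group were in replicates 1 and 2, which were also the lowest and the highest for Oas1a, Oas1g, Oas2 and Oas3. The remaining members did not follow this. Among vehicle livers Oas1b was lowest in replicate 5, and Oas1c lowest in replicate 4 and highest in replicate 3. Oasl1 was highest in replicate 3 and Oasl2 in replicate 4. Vehicle replicate 4, at 1509 CPM, was close to the highest Kupffer sum. In the napabucasin group replicate 5 held 559 CPM of Kupffer markers and the other 4 held 1973 to 2158 CPM, whereas the Oas family sum of replicate 5 lay within the range of the other 4. Sinusoidal endothelial sums were 226 to 347 CPM in napabucasin and 85.8 to 287 CPM in vehicle livers, with 3 of 10 higher. All 10 of these markers had log2 fold changes above 0 (median 0.58). Stellate cell sums were 508 to 1325 CPM in napabucasin and 442 to 606 CPM in vehicle livers, with 6 of 10 higher and all 10 above 0 (median 0.76). Monocyte sums were 53.4 to 150.5 CPM in napabucasin and 27.4 to 92.8 CPM in vehicle livers, with 0 of 8 higher and 5 above 0. Neutrophil sums were 19.3 to 73.1 CPM in napabucasin and 13.9 to 47.7 CPM in vehicle livers, with 1 of 6 fitted higher and all 6 above 0. Among plasmacytoid dendritic cell markers, the interferon-induced Bst2 was the largest part, averaging 203 CPM in napabucasin and 198 CPM in vehicle livers. The sums of these markers were 125 to 322 CPM in napabucasin and 163 to 272 CPM in vehicle livers. Of the 4 fitted, 0 were higher and 2 were above 0. Among cholangiocyte markers, Spp1 was the largest part, averaging 327 CPM in napabucasin and 338 CPM in vehicle livers. Cholangiocyte sums were 268 to 447 CPM in napabucasin and 218 to 482 CPM in vehicle livers, with 0 of 6 higher and 1 lower by the unadjusted rule. That marker was Tspan8, a tetraspanin, with a log2 fold change of -0.89 (SE 0.30), and 2 of the 6 had one above 0. The part of these cells in the Oas values was not tested.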

How the data were processed

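Poly(A)-selected, random-primed RNA-seq libraries of 10 livers were analysed, 5 per group. The authors deposited raw counts of reads per gene. The submitters' processing notes name featureCounts 1.5.0-p3, HISAT2 2.0.5, CASAVA and the build GRCm38 (mm10). FPKM, also deposited, divides those counts by gene length and 1 size factor per library; 2 group mean columns were not used.

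Counts were fitted in edgeR 4.0.16 (R 4.3.3, limma 3.58.1): filterByExpr (14244 genes left), TMM, a robust quasi-likelihood F test on treatment alone, and Benjamini-Hochberg adjustment over all genes, threshold 0.05. SEs are those implied by the F statistic. P-values rest on the spread among the 10 libraries. CPM uses TMM library sizes. Deviations use log2 CPM with a prior count of 2. The fit was tested on simulated counts that gave every gene the same biological spread and held no outlying library. That test does not cover genes as variable between livers as Oas2.

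The members and lists (20 lists, 219 names, 3 not matched) were chosen with earlier results of these data known. Named genes are all Oas genes, the 5 genes of 2-5A action, up to 4 per other list by smallest p, and the 10 most alike genes; some genes the rule names are not reported here. Alternatives were other scalings, filters and tools (DESeq2 1.42.0, limma-voom, limma on log2(FPKM + 1) and log2(FPKM + 0.1), with genes of at least 0.5 mean FPKM or none left out), a replicate block and each library left out.

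Deviations of same-numbered libraries correlated at 0.154, 0.227, 0.208, 0.270 and 0.278, all above 0.1. They were not compared with the correlations of differently numbered libraries, so they do not establish that the numbers pair the samples. The main fit therefore used treatment alone, and the replicate block was run only as an alternative. The labels do not say what equal numbers share.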

Additional observations from a re-analysis of the deposited data

Results flagged for a closer look

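Of 74 sets of 5 values, 9 had 1 value far from its neighbours (the gap to the nearest over the whole range above 0.71), and chance flags about 1 in 20 sets. These sets are not separate draws: 3 of the 9 values are listed in both CPM and FPKM of the same counts, which leaves 6. Napabucasin replicate 1 stood apart in Oas2, at 219 CPM against 55.6 to 81.3 CPM in the other 4 and 47.9 FPKM against 12.3 to 18.3 FPKM. It also stood apart in Oas1c, at 9.35 CPM against 2.72 to 4.60 CPM and 3.79 FPKM against 1.12 to 1.88 FPKM. Vehicle replicate 2 stood apart in Oas1b, at 8.50 CPM against 2.66 to 3.62 CPM and 4.17 FPKM against 1.35 to 1.81 FPKM. Of the values given beside the Oas genes, the mitochondrial share of vehicle replicate 1 was 19.0% against 7.03% to 8.78%. The Kupffer marker sum of napabucasin replicate 5 was 559 CPM against 1973 to 2158 CPM, and the B cell marker sum of vehicle replicate 3 was 67.0 CPM against 43.1 to 49.8 CPM.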

How the results depend on the processing

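All 168 member fold changes recomputed under 21 alternatives stayed above 0 and moved by less than 1 pooled SD of the gene's log2 CPM. That SD is a loose bound, for Oas2 0.94 where the SE of the fold change was 0.49. With 1 library left out Oas2 ran from 0.93 to 1.99 and stayed within it. Few such changes could pass this bound, so staying within it says little. The member median of 0.93 ran from 0.84 to 1.15 with 1 library left out and from 0.74 to 0.98 under the others. On log2(FPKM + 1), where the added 1 compresses low genes, the values of Oas1c and Oas3 were 0.48 and 0.59. The number of genes past the threshold, 0 in the test of all libraries, was 1 with library size only, 19 without the filter, 242 with DESeq2, 132 with limma-voom and 1 with log2(FPKM + 0.1); the cause was not tested. With each library left out it ran from 0 to 18, with 18 without vehicle replicate 1 and 3 without napabucasin replicate 5. With the replicate block edgeR called 0 genes, all 8 members stayed higher with a median of 0.98, and no call changed. With 1 library left out, 6 to 8 members and 5.88% to 11.3% of all genes were higher at an unadjusted p under 0.05. The 4 most abundant members per length were the same 4 with TMM library sizes. Depth limits Oas1c, with 30 to 150 counts a library, and Oas3, with as few as 26.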
